A study of Mus musculus with 10 samples.

Results

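The growth hormone, STAT5 and IGF1 axis was followed through 10 genes in the livers of mice fed a high-fat diet with or without ethanol. Its members are Ghr, Stat5b, Socs2, Cish, Bcl6, Igf1, Igfals, Hsd3b5, Elovl3 and Cux2. They were picked by name, and every non-control array probe whose transcript accession maps to one of them was taken, which gave 13 probes. Of the 10 genes, 9 had a probe well above background on all 10 arrays and were among the 15089 genes tested. Cux2 had 1 probe, which was not well above background on any array.

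All mice were males of the inbred strain C57BL/6J, bought at 7 weeks of age and given 1 week to settle before the diet began. The control group (HFD_control) ate a diet with 60% fat for 4 months. The ethanol group (HFD_ethanol) ate the same diet for the same time and, after its first month, drank ethanol in its water for 3 months. Its daily intake per kg of body weight was 5 g during the opening week and 10 g from then on. The experiment held 20 mice, 10 per group, and the liver RNA of 5 randomly chosen mice per group was put on 1-colour Agilent arrays, 1 mouse per array, so n = 5 counts animals. Since every mouse ate the diet and no group on standard food was on the arrays, the comparison concerns ethanol on top of this diet, not the diet itself.

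Growth hormone reaches the liver in pulses, binds its receptor GHR and activates the kinase JAK2, which phosphorylates the transcription factors STAT5A and STAT5B. STAT5 dimers enter the nucleus and switch on Igf1 and Igfals, whose products circulate as a complex, and the genes of the feedback inhibitors Cish and Socs2. The widely spaced pulses of male rodents and the more even release of females set many sex-biased liver genes, with BCL6 and CUX2 as repressors downstream, Hsd3b5 and Elovl3 as male-biased targets and Cux2 itself as a female-biased one.

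The letters that a STAT5 dimer reads are a palindrome, TTCNNNGAA, the same on both strands. It was looked for in the 300 bases around each annotated gene start (250 before, 50 after) in the RefSeq promoter table of build GRCm38.p6. This table matched 8 of the 10 axis genes with 14 windows, and 5 of the windows, in Cish, Bcl6 and Igfals, held the motif. Of all 32851 windows in the table, 2726 (8.30%) held it, 150 (0.457%) held 2 or more and 11 (0.0335%) held 3 or more. A match describes the letters only and is not a measured binding site. The stretches are shown because Cish and Bcl6, with 2 and 3 motifs in 1 window, were among the axis genes that varied most between mice. Hsd3b5 varied more than either and its window held no motif, and a link between motifs and spread was not tested. The capitals mark the fixed letters of the motif.
Cish, plus strand, chr9:107296654-107296683: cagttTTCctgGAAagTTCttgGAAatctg
Bcl6 window 1, minus strand, chr16:23981358-23981456: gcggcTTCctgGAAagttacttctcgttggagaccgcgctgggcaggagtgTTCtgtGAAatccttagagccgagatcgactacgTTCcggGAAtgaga
Bcl6 window 2, minus strand, chr16:23988952-23988980: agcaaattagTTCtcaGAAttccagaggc
Igfals window 1, plus strand, chr17:24877598-24877626: gatctataatTTCtcaGAAaagaggctga
Igfals window 2, plus strand, chr17:24878163-24878191: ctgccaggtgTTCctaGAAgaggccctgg

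In Bcl6 window 1 the motifs began 168, 122 and 88 bases before the gene start. In Bcl6 window 2 the motif began 118 bases before its start, and in the Igfals windows 236 and 58 bases before. In Cish one motif began at the start base itself and the other 11 bases further on. The windows of Ghr, Igf1, Stat5b, Hsd3b5 and Cux2 did not hold these letters. Socs2 and Elovl3 had no window, so the letters were not looked for there.

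On each array 55.5% to 59.1% of spots were well above background and no spot was saturated. All 8 hepatocyte markers, Alb and Apoa1 among them, were above background on every array, and their mean log2 signal per mouse lay between 7.10 and 7.51 in control and between 6.96 and 7.56 in ethanol livers. The arrays lay on 3 slides. Control mice 4 and 5 shared slide 1 with ethanol mouse 4, control mice 1 and 3 were alone on slide 2, and control mouse 2 was on slide 3 together with ethanol mice 1, 2, 3 and 5. The only arrays of slide column 1 were those of ethanol mice 2 and 3, and slide column 4 was taken up by control mice 1, 4 and 5. Throughout, a log2 signal is the log2 of the processed intensity relative to the 75th percentile of its array. It compares mice for 1 probe and does not compare genes with each other.

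No axis gene differed between the groups at an adjusted p under 0.05 in limma with Benjamini-Hochberg adjustment over all genes. The count was 0 of 9 in either direction, against 0.0133% of all genes called higher and 0.00663% called lower, which is 2 and 1 gene (0.0199% in all). At an unadjusted p under 0.05 the count was also 0 of 9, where 8.12% of all genes were higher and 5.22% lower. The ethanol and control values overlapped in each of the 9, whereas 3.05% of all genes had no overlap (1.97% higher and 1.07% lower with ethanol). Their median log2 fold change was 0.03, the same as the 0.03 over all genes. Whatever the p, 8572 of all 15089 genes were higher and 6517 lower, which is the background for the counts of higher and lower genes in the lists below.

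Single mice of a group lay far from each other in most of the axis genes. The SD between mice of 1 group (log2 units, 8 degrees of freedom) was above the 95th percentile of all genes for 6 of the 9 axis genes, namely Hsd3b5, Cish, Bcl6, Elovl3, Socs2 and Igfals. Hsd3b5 had the highest SD of all 15089 genes, under each of the settings named next as well. The other axis genes were near the middle of the distribution, with Igf1 at the 64.4th, Ghr at the 62.9th and Stat5b at the 45.7th percentile. This count was 6 as well with quantile normalization, with another background correction, with values centred on group and slide, and in 9 of the 10 sets without 1 array. It was 5 without ethanol replicate 5, where Igfals fell to the 90.9th percentile. With the other background correction Igf1, Ghr and Stat5b ranked higher, at the 85.9th, 85.4th and 68.8th percentile. These are descriptions of 10 livers, with no test.

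**Figure D1:**
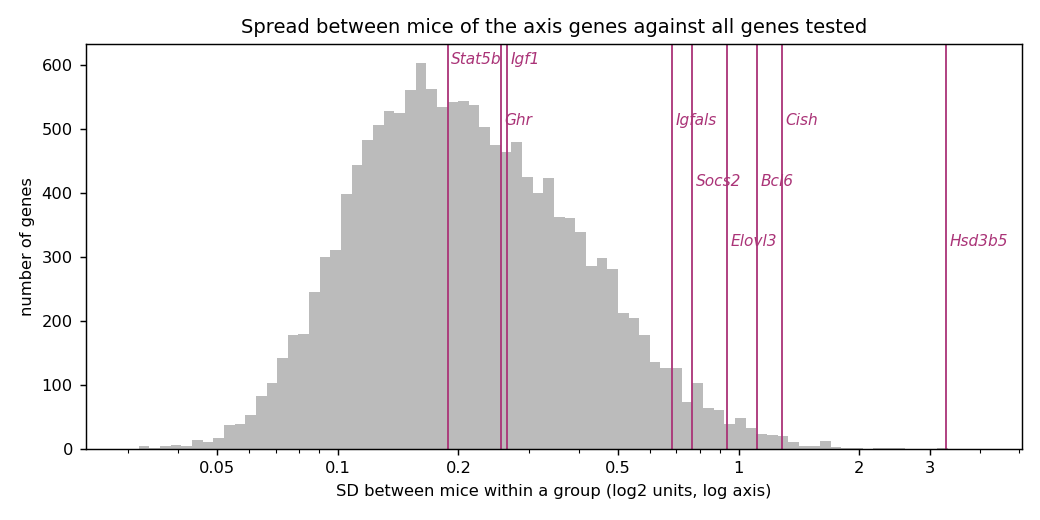
Number of genes (vertical axis) by SD between mice within a group (horizontal log axis, log2 units) for all 15089 genes tested, with a purple line at each of the 9 axis genes. Hsd3b5 lies at the right end with an SD of 3.30, Cish at 1.28 and Bcl6 at 1.11, while the median of all genes is 0.203.

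The receptor varied less from mouse to mouse than most of the other axis genes, with an SD at the 62.9th percentile of all genes. Ghr, the growth hormone receptor, had log2 signals of 4.88, 5.16, 5.32, 5.18 and 5.16 in control replicates 1 to 5 and of 4.84, 5.52, 5.31, 5.38 and 4.81 in ethanol replicates 1 to 5. The groups overlapped, with ethanol replicates 1 and 5 and control replicate 1 lowest. The log2 fold change was 0.03 ± 0.15 (SE, limma adjusted p = 0.948) with a 95% interval from -0.31 to 0.37. The other 2 Ghr probes gave 0.15 and 0.20.

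Stat5b encodes the STAT5 protein that carries most of the growth hormone signal in liver. It read 2.79, 2.79, 2.63, 3.07 and 2.57 in control and 2.41, 2.75, 2.77, 2.86 and 2.85 in ethanol livers. Apart from the low ethanol replicate 1, the ethanol values lay within the control range. The log2 fold change was -0.04 ± 0.12 (SE, limma adjusted p = 0.906; 95% interval -0.30 to 0.22). Array signals are transcript levels and say nothing of STAT5 phosphorylation, which carries the pulse.

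The feedback inhibitors varied far more, chiefly among the ethanol mice. Cish encodes a SOCS-family protein that binds the activated receptor and blocks STAT5 docking. Its log2 signals were 2.03, 1.79, 0.44, 1.92 and 2.64 in control and 2.35, 2.71, 1.62, -1.20 and 0.20 in ethanol livers. Ethanol replicates 4 and 5 were the lowest of all 10 mice, with control replicate 3 next, while ethanol replicates 1 and 2 were in the upper part of the control range or just above it. The highest and lowest mouse differed 15.0-fold. The group means were 1.76 ± 0.81 (SD, n = 5) and 1.14 ± 1.62 (SD, n = 5), a log2 fold change of -0.63 ± 0.71 (SE, limma adjusted p = 0.712) with a 95% interval from -2.21 to 0.96. Without ethanol replicate 4 the difference was -0.04. Slide 1, whose only ethanol array is that replicate, gave -3.48, slide 3 gave -0.07, and blocking on the slide gave -1.62. The adjusted p passed the threshold in none of these.

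Socs2, the other main inhibitor, which marks the receptor for degradation, was likewise lowest in ethanol replicates 5 and 4. It read -0.59, -0.54, 0.11, -0.16 and 0.01 in control and 0.74, -0.48, 0.40, -1.24 and -1.68 in ethanol livers. The control mice spanned 0.70 log2 units, and the ethanol mice lay on both sides of them, replicates 4 and 5 below and replicates 1 and 3 above. Group means were -0.23 ± 0.32 (SD, n = 5) for control and -0.45 ± 1.04 (SD, n = 5) for ethanol, a log2 fold change of -0.22 ± 0.43 (SE, limma adjusted p = 0.845; 95% interval -1.17 to 0.74). Without ethanol replicate 5 it was 0.09. The other Socs2 probe gave -0.11.

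Bcl6 is a transcriptional repressor that binds many of the same sites as STAT5 and whose transcript STAT5 lowers in male liver. It read 1.66, 0.75, 2.47, 2.88 and 2.59 in control and 1.38, 1.83, 1.12, 4.20 and 3.19 in ethanol livers. The highest 2 values were those of ethanol replicates 4 and 5, the mice with the lowest Cish and Socs2, and the other 3 ethanol mice lay within the control range. Its log2 fold change was 0.27 ± 0.62 (SE, limma adjusted p = 0.869; 95% interval -1.10 to 1.65). Blocking on the slide gave 1.28, slide 1 alone 1.47 and slide 3 alone 1.13. Leaving out ethanol replicate 4 gave -0.19, and the sign turned in 3 of 29 alternatives.

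Igf1 encodes the circulating growth factor through which much of growth hormone's action on the body runs. Its log2 signals were 5.74, 6.11, 6.10, 5.83 and 6.19 in control and 5.80, 6.14, 6.42, 6.13 and 5.61 in ethanol livers. Ethanol replicate 3 was the highest and ethanol replicate 5 the lowest of all mice, and the groups overlapped over most of their range. The log2 fold change was 0.03 ± 0.16 (SE, limma adjusted p = 0.950; 95% interval -0.32 to 0.38). With quantile normalization the values of Igf1 and Ghr were -0.09 and -0.08, so neither gene has a direction.

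Igfals encodes the acid-labile subunit, which holds IGF1 and its binding protein in a long-lived complex in blood. It read 0.48, 1.11, 1.80, 0.83 and 1.67 in control and 0.95, 1.96, 1.64, 1.35 and -0.08 in ethanol livers. Ethanol replicate 5 was again the lowest mouse and control replicate 1 the next. The log2 fold change was -0.01 ± 0.38 (SE, limma adjusted p = 0.990; 95% interval -0.87 to 0.84), within an overall span of 4.13-fold between mice.

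The widest range of all belonged to Hsd3b5, a hydroxysteroid dehydrogenase of adult male liver that is used as an indicator of the male growth hormone pattern. Its log2 signals were -3.20, -2.95, 3.20, -1.95 and -0.88 in control and -4.03, 3.33, 5.36, -0.14 and -2.19 in ethanol livers. Control replicate 3 and ethanol replicates 2 and 3 stood apart from the other 7 mice, which were all at or below -0.14. From the lowest to the highest mouse the signal differed 670-fold, and the probe was well above background in every mouse. The means of -1.15 ± 2.60 (SD, n = 5) and 0.46 ± 3.87 (SD, n = 5) gave a log2 fold change of 1.62 ± 1.84 (SE, limma adjusted p = 0.710), with a 95% interval from -2.46 to 5.69. Blocking on the slide gave 2.52, slide 1 alone 1.27 and slide 3 alone 3.57. It was 0.39 without ethanol replicate 3, 2.71 without control replicate 3 and 2.74 without ethanol replicate 1. Ethanol replicates 2 and 3 are the 2 arrays of slide column 1, and without them the difference was -0.97. Hsd3b5 has close relatives in its gene family, and signal from a near copy may not be told apart from its own.

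Elovl3 encodes a fatty acid elongase, male-biased and rhythmic over the day in liver. It read 2.93, 2.89, 3.29, 4.02 and 2.67 in control and 2.22, 4.24, 5.41, 3.39 and 3.08 in ethanol livers. Ethanol replicates 2 and 3 were highest, as for Hsd3b5, but control replicate 4, not 3, was the highest control mouse. Ethanol minus control was 0.51 ± 0.52 in log2 fold change (SE, limma adjusted p = 0.677; 95% interval -0.65 to 1.67). Leaving out ethanol replicate 3 gave 0.07, slide 1 alone 0.05 and slide 3 alone 0.85. Without the 2 arrays of slide column 1 it was -0.26.

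**Figure D2:**
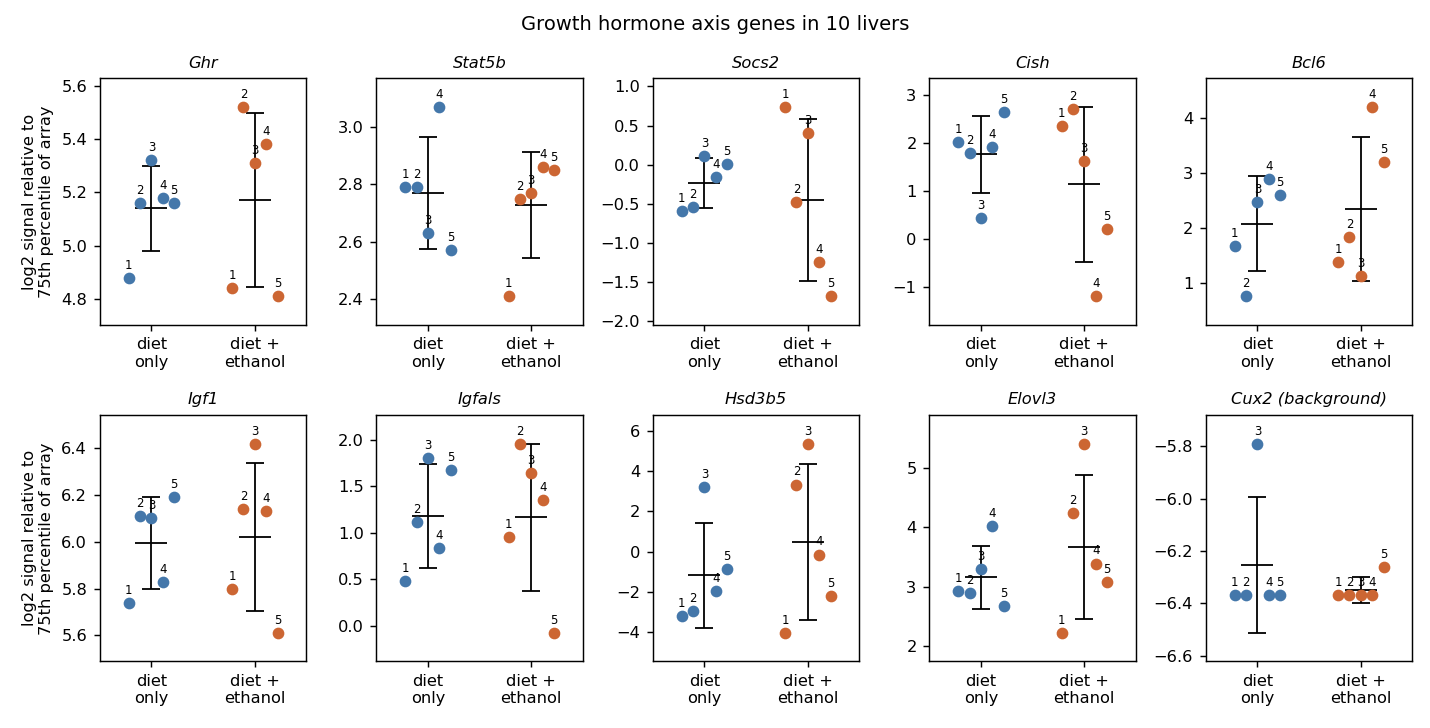
Log2 signal scaled to the 75th percentile of each array (vertical axis, a separate scale for each gene) for each mouse, numbered by replicate, in the diet only and diet plus ethanol groups, with black bars for the mean and SD of 5 mice. The groups overlap in all 9 genes above background, control 3 and ethanol 2 and 3 stand apart in Hsd3b5, and ethanol 4 and 5 are low in Cish and Socs2 and high in Bcl6.

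For 8 of the 9 axis genes, all but Stat5b, the SD was larger among ethanol than among control mice. Of all genes tested 59.3% had a larger SD among ethanol mice, and the median SD was 0.177 in control and 0.205 in ethanol livers. The axis genes share mice and move together, so the 8 do not count as separate observations, and the difference in spread was not tested.

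**Figure D3:**
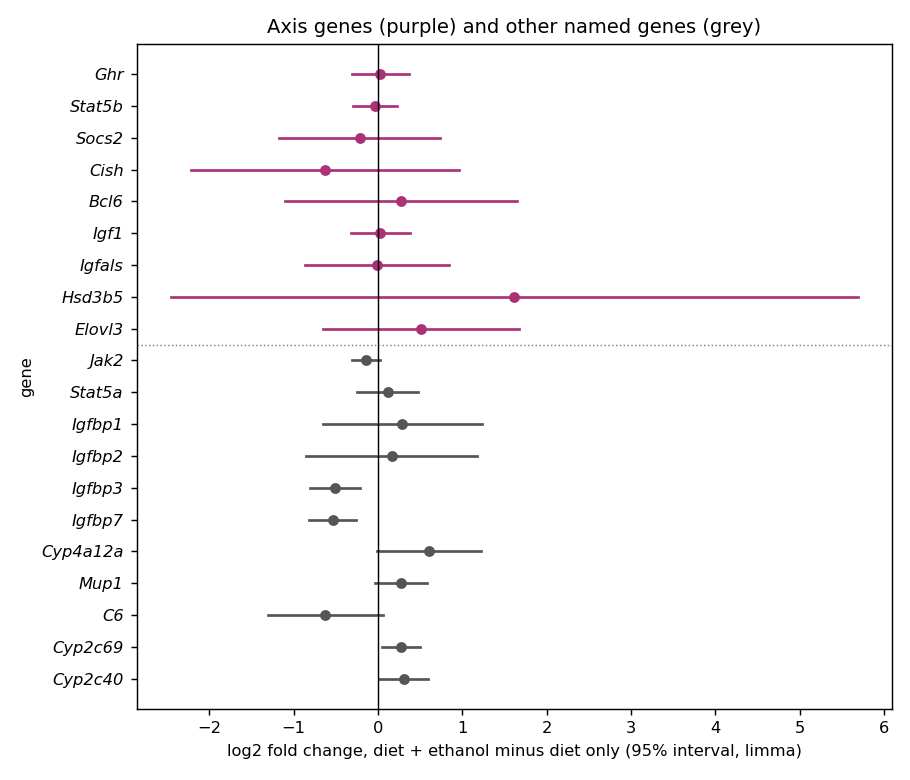
Log2 fold change, ethanol minus control (horizontal axis; points, with 95% intervals of limma as lines), for the 9 axis genes in purple and 11 other named genes in grey. All 9 purple intervals span 0; Hsd3b5 has the widest, from -2.46 to 5.69, and Stat5b the narrowest, from -0.30 to 0.22.

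Across mice the receptor and the IGF1 complex genes covaried. With each group's mean removed, Igf1 and Igfals had a Pearson r of 0.872 over 10 mice (permutation p = 0.00114, adjusted p = 0.0302 over 36 pairs of axis genes) and a Spearman rho of 0.794 (permutation p = 0.00890, adjusted p = 0.0641). Ghr and Igfals had an r of 0.852 (permutation p = 0.00168, adjusted p = 0.0302) and a rho of 0.794 (permutation p = 0.00878, adjusted p = 0.0641). Without the 2 mice farthest from the median, r was 0.707 for Igf1 with Igfals and 0.842 for Ghr with Igfals. Centred on group and slide, r was 0.881 and 0.856. These 2 of the 36 pairs passed an adjusted p of 0.05 by r and none passed by both r and rho. The genes share the mouse, the RNA extract and the array, and the p-values cannot tell that sharing from a relation between the genes.

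Hsd3b5 went with the same genes. Its r was 0.778 with Ghr, 0.760 with Igf1, 0.747 with Igfals and 0.774 with Elovl3, with permutation p-values of 0.00927, 0.0115, 0.0136 and 0.00702 and adjusted values of 0.0667, 0.0692, 0.0699 and 0.0632, none past the threshold. The matching rho values were 0.818, 0.806, 0.818 and 0.697. Over the 7 mice other than control replicate 3 and ethanol replicates 2 and 3, which were left out for their Hsd3b5 values, r was 0.787 with Ghr, 0.600 with Igf1, 0.479 with Igfals and 0.503 with Elovl3.

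For the inhibitors and Bcl6 the r with Hsd3b5 differed with and without those 3 mice. Leaving out the 3 highest in Hsd3b5 narrows its range, and the difference was not tested. Over all 10 mice the r with Hsd3b5 was -0.03 for Cish, 0.26 for Socs2 and -0.07 for Bcl6, and over the 7 mice it was -0.682, -0.453 and 0.890. Cish and Bcl6 ran opposite to each other, with an r of -0.684 (permutation p = 0.0290, adjusted p = 0.131) and a rho of -0.515 (permutation p = 0.134), and without control replicate 3 and ethanol replicate 4 the r was -0.386, so the relation leaned on those mice. Socs2 had an r of 0.570 with Cish and of -0.560 with Bcl6 (permutation p = 0.0875 and 0.0930, both 0.260 after adjustment). None of these passed the adjusted threshold.

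**Figure D4:**
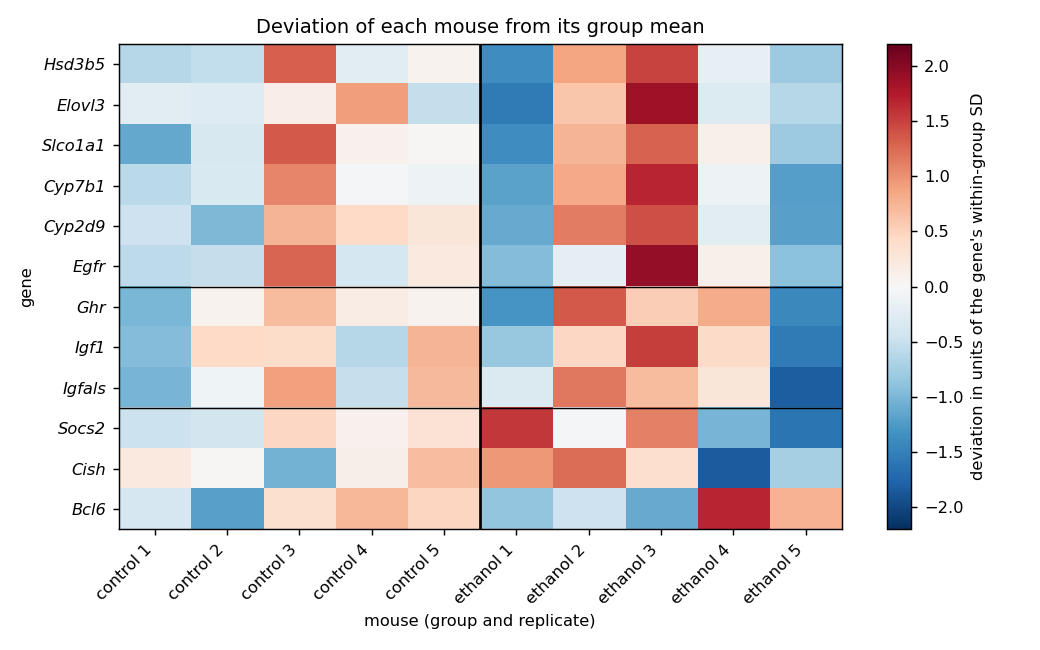
Deviation of each mouse (columns, 5 control then 5 ethanol) from its group mean, in units of the gene's within-group SD (colour, red above and blue below), for Hsd3b5, Elovl3 and 4 male-biased genes (top), the receptor and IGF1 genes (middle) and Socs2, Cish and Bcl6 (bottom). Ethanol 3 is above its group mean in every gene shown except Bcl6, and ethanol 4 and 5 are blue in Socs2 and Cish and red in Bcl6.

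Other male-biased genes tracked Hsd3b5 from mouse to mouse. Of the 19 tested members of a list of male-biased liver genes, 16 had an r above 0 with Hsd3b5, with a median of 0.619, against 49.3% of all genes and a median of -0.01. An r above 0.8 was found for 8 of the 19 (42.1%) and for 4.26% of all genes. Of 18 female-biased genes well above background on at least 4 of 5 arrays in both groups, 6 were above 0, with a median of -0.26 and none above 0.8. Over the 7 mice without the 3 highest in Hsd3b5, 15 of the 19 male-biased genes were above 0 with a median of 0.561, against 51.2% of all genes, and 9 of the 18 female-biased genes were above 0 with a median of -0.048. The median of the male-biased list stayed between 0.603 and 0.712 with any 1 array left out, and that of the 18 female-biased genes between -0.37 and -0.078. Genes of a liver share the mouse, the RNA extract and the array, so these correlations carry no p, and the lists were compared with Hsd3b5 after its values had been seen.

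The following male-biased genes were chosen after their values were seen, as the clearest of those with a high r. Slco1a1, an organic anion transporter of the hepatocyte surface, read -0.99, 0.06, 2.37, 0.65 and 0.56 in control and -0.95, 1.92, 2.68, 1.07 and -0.17 in ethanol livers, with an r of 0.97 with Hsd3b5. Cyp7b1, an oxysterol hydroxylase, read 2.95, 3.17, 4.39, 3.44 and 3.37 in control and 2.79, 4.54, 5.27, 3.71 and 2.76 in ethanol livers, also with an r of 0.97. In both genes control replicate 3 and ethanol replicates 2 and 3 were the 3 highest mice, as in Hsd3b5. Egfr, the epidermal growth factor receptor, and Cyp2d9, a testosterone hydroxylase, had an r of 0.90 and 0.92. Cyp4a12a did not go with them, with an r of -0.18. Slco1a1 had a log2 fold change of 0.38 ± 0.76 (SE, limma adjusted p = 0.845) and Cyp7b1 one of 0.35 ± 0.49 (SE, limma adjusted p = 0.770), so neither differed between the groups at the threshold. The Cyp and Mup families hold near-identical copies, between which array probes may not tell.

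Hepatocyte genes that are not sex-biased markers moved with it in part. Among 8 hepatocyte markers, Cps1, the first enzyme of the urea cycle, had an r of 0.87 with Hsd3b5 and Serpina1b 0.83, while 4 of the 8 were below 0. Cps1 and Tat, a tyrosine-degrading enzyme, had an r of 0.83 and 0.81 with Igf1. Their part in the covariation was not tested.

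By likeness to the axis genes over the 10 mice (r of group-centred log2 signals, among 15086 genes), the 3 nearest genes to Hsd3b5 were C8b, a subunit of complement component C8, with an r of 0.979, Gm6329 with 0.977 and Prdx4, a peroxiredoxin of the endoplasmic reticulum, with 0.974. For Elovl3 they were Ptprk (0.973), Tmed7 (0.968) and Mfsd6 (0.968). For Igf1 they were 4732490B19Rik (0.960), Prss48 (0.955) and Prss41 (0.949). The top correlations among so many genes over 10 mice are high by selection, so these are names only.

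Among the partners of the receptor, 0 of 15 tested genes were called by limma and 0 had an unadjusted p under 0.05; 6 were higher and 9 lower, with a median log2 fold change of -0.02. Jak2 encodes the receptor's kinase, and its log2 fold change was -0.15 ± 0.08 (SE, limma adjusted p = 0.416). Stat5a, the second STAT5 gene, had 0.11 ± 0.17 (SE, limma adjusted p = 0.782). Its dimmer probe gave -0.33 (limma adjusted p = 0.353 over all probes), so its probes disagreed in sign, and the mean over them gave -0.11. The hormone receptors Lepr, for leptin, and Prlr, for prolactin, had 0.28 and 0.39 (limma adjusted p = 0.467 and 0.496). Lepr has 2 dimmer probes, which gave 1.34 and 1.33 (limma adjusted p = 0.367 and 0.358 over all probes), so its probes disagreed in size. The other Prlr probes gave 0.34 and 0.52. The counts above rest on the brightest probe of each gene. Dimmer probes of Stat5a, Lepr, Prlr and Ptpn6 had an unadjusted p under 0.05 in limma, and none of them passed the adjusted threshold.

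Of the 14 genes of the IGF system 10 were tested, and none was called by limma in either direction. At an unadjusted p under 0.05, 2 were lower with ethanol and 0 higher, and these 2, Igfbp3 and Igfbp7, were also those whose groups did not overlap (1.07% of all genes were lower in that way). Igfbp3, the main carrier of IGF1 in blood and the third partner of the complex with Igfals, read 2.83, 2.94, 2.73, 2.87 and 3.05 in control and 2.53, 2.12, 2.04, 2.67 and 2.52 in ethanol livers. Igfbp7, a distant family member that binds IGF1 weakly, read 5.53, 5.20, 5.08, 5.55 and 5.78 in control and 4.94, 4.84, 4.88, 4.89 and 4.91 in ethanol livers. All 5 ethanol values were below all 5 control values for each gene. Igfbp3 had a log2 fold change of -0.51 ± 0.13 (SE, limma adjusted p = 0.206) and Igfbp7 one of -0.54 ± 0.13 (SE, limma adjusted p = 0.184), so neither passed the threshold over all genes. Over all alternatives Igfbp3 stayed between -0.64 and -0.29 with adjusted p-values of at least 0.0956, and Igfbp7 between -0.77 and -0.31 with adjusted p-values of at least 0.0851.

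Both binding proteins are made in liver largely outside hepatocytes, so the markers of such cells are given beside them. Of 8 hepatic stellate cell markers 0 were called by limma; 6 were lower with ethanol, 5 of them at an unadjusted p under 0.05 (5.22% of all genes), and their mean log2 signal per mouse ran from 1.01 to 1.33 in control and from 0.423 to 1.02 in ethanol livers. Of 8 endothelial markers 5 were lower, 0 of them at that p, and 3 higher, 1 of them at that p (Pecam1, 0.32, named after its value was seen). Their mean per mouse ran from 0.975 to 1.26 and from 0.992 to 1.21. Of 8 Kupffer cell and macrophage markers 3 were higher, 1 of them at that p (Clec4f, 0.42, likewise), and 5 lower, 0 of them at that p, with a mean from 1.51 to 2.28 and from 1.44 to 2.41. All 8 of each list were detected. Their part in the 2 binding proteins was not tested, and in bulk liver fewer cells of a type and less RNA per cell cannot be told apart.

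Igfbp1 and Igfbp2, the binding proteins of fasting and low insulin, also varied widely between mice. Igfbp1 had a log2 fold change of 0.29 ± 0.43 (SE, limma adjusted p = 0.785) and Igfbp2 one of 0.16 ± 0.46 (SE, limma adjusted p = 0.896). Their SDs between mice were at the 96.9th and 97.7th percentile of all genes. This was not particular to them, since Igfbp6 was at the 99.6th and Igfbp5 at the 91.0th. Igfbp4, Igfbp3 and Igfbp7 were at the 60.7th, 53.7th and 50.1th. Across mice Igfbp1 had an r of -0.69 with Igf1, and Igfbp2 had an r of 0.78 with Igf1 and 0.87 with Hsd3b5. Insr, the insulin receptor, had a log2 fold change of 0.12 ± 0.11 (SE, limma adjusted p = 0.643).

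Of 12 transcription factors known for sex-biased liver expression 0 were called by limma. At an unadjusted p under 0.05, 1 was higher and 0 lower, against 8.12% and 5.22% of all genes. Of the 12, 9 were higher and 3 lower, with a median log2 fold change of 0.08. Among all 15089 genes 8572 were higher. Esr1, the oestrogen receptor, had 0.39 and Zhx2, a repressor that sets strain differences in liver, 0.29 (limma adjusted p = 0.538 and 0.528).

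Neither the male-biased nor the female-biased targets held a gene called by limma, and the sign of either list's median changed with the arrays used. Of all 15089 genes tested 8572 were higher and 6517 lower, with a median log2 fold change of 0.03. Of the 19 male-biased genes tested 14 were higher and 5 lower, with a median of 0.21 and 0 at an unadjusted p under 0.05. That median was -0.18 with the array column as a covariate and -0.06 without ethanol replicate 3. These counts rest on the brightest probe of each gene. A dimmer Cspg5 probe gave 0.72 (limma adjusted p = 0.353 over all probes) with an unadjusted p under 0.05, while the brightest gave -0.17. The smallest p-values belonged to Cyp4a12a, a fatty acid hydroxylase, with a log2 fold change of 0.60 ± 0.28 (SE, limma adjusted p = 0.378), the complement gene C6 with -0.63 ± 0.31 (SE, limma adjusted p = 0.396) and the urinary protein gene Mup1 with 0.27 ± 0.14 (SE, limma adjusted p = 0.409).

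Of 19 female-biased genes tested, Sult3a1 passed the filter through the ethanol group alone and is left out of the counts. Of the other 18, 14 were higher and 4 lower, with a median of 0.19, and 3 were higher at an unadjusted p under 0.05, against 7.45% of the 14458 genes that passed the filter in both groups. Of those 14458 genes 8182 were higher and 6276 lower, with a median of 0.03. Within slide 3 the median over the 19 was -0.11. Sult3a1, a sulfotransferase nearly silent in male liver, read -4.69, -3.93, -5.74, -5.61 and -5.83 in control and -0.94, -2.28, -6.37, -2.68 and -1.09 in ethanol livers. Its probe was above background in 1 control and 4 ethanol mice, and ethanol replicate 3 was at the floor, so no fold change or test is given for it. Cyp2c69 and Cyp2c40, cytochromes P450 of the female pattern, had 0.27 ± 0.10 (SE, limma adjusted p = 0.319) and 0.31 ± 0.13 (SE, limma adjusted p = 0.355). The other of the 3, Cyp4a14, named here only to complete the count, had 0.95 ± 0.42 (SE, limma adjusted p = 0.362).

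Cux2, the female-biased repressor, gave no measurable level. Its probe sat at or near the floor in all 10 mice, and neither a fold change nor a test is given.

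Of 7 lipid genes that growth hormone and STAT5 restrain in liver, 2 were higher and 5 lower, with 0 called by limma, 0 at an unadjusted p under 0.05 and a median log2 fold change of -0.12, or 0.09 without ethanol replicate 3. Plin4, a lipid droplet coat protein, had -0.28, the lipase gene Lpl -0.46 and the fatty acid transporter Cd36 -0.12 (limma adjusted p = 0.505, 0.536 and 0.820). Of 10 immediate-early genes, which respond within minutes to hormones and handling, 2 were higher and 8 lower, with 0 called by limma, 0 at an unadjusted p under 0.05 and a median of -0.06, or 0.07 without ethanol replicate 4. Junb had 0.29, Jun -0.31 and Fos -0.09 (limma adjusted p = 0.505, 0.793 and 0.809).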

How the data were processed

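Liver RNA of 10 mice was measured on 10 arrays. The authors deposited a scanner table per array, with spot intensity on a linear scale from Agilent Feature Extraction 10.7.3.1, per the file headers, for an array designed on mm9. The authors also deposited a log2 table of the same arrays, used as an alternative; how it was made and the value each probe was centred on are not given in the sources used here (column medians -0.12 to 0.08). Differences between arrays in it had an r of 1 with the scanner values on each array over 27809 probes.

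Control and outlier spots were left out. The processed intensity was scaled so that the 75th percentile of each array (277 to 383 units) equalled the median of these percentiles. A floor of 4 units was then set, and log2 was taken relative to that median. Probes were kept if well above background on at least 4 of 5 arrays of a group (31110 of 56605). Genes were named from accessions through the RefSeq table of GRCm38.p6 (32994 probes with 1 gene, 23611 unnamed here), and the brightest kept probe stood for a gene. The test was limma 3.58.1 (R 4.3.3), with Benjamini-Hochberg adjustment over 15089 genes, which was tested on simulated data. Correlations used 100000 permutations. The number of arrays limits the precision.

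The members and lists were chosen with earlier results of these data known. Named genes were the axis genes, Jak2, Stat5a and Igfbp1 to Igfbp3, from each list all members past the threshold or otherwise the 3 with the smallest p, and the 3 genes most like Igf1, Hsd3b5 and Elovl3. Of the list members so chosen, 1 is not reported here. Alternatives covered normalization, background correction (normexp, offset 50, on median signals), floor, filter, probe rule, slide, array column, replicate block, variance model and leaving out arrays. The spread and list correlations under other settings, the set of 7 mice, and the list counts over genes above background in both groups were added after seeing the data.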

Additional observations from a re-analysis of the deposited data

Results flagged for a closer look

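Among the axis genes and other named genes, 66 sets of 5 mice were screened for a mouse far from the other 4, and 5 were found, where chance gives about 1 in 20. Stat5b was low in ethanol replicate 1, at a log2 signal of 2.41 with the nearest other mouse at 2.75. Jak2 was high in ethanol replicate 4, at -1.34 with the nearest at -1.49. Insr was high in control replicate 2, at -0.56 with the nearest at -0.95. Cd36, the fatty acid transporter, was low in control replicate 3, at 2.72 with the nearest at 3.08, and in ethanol replicate 3, at 2.10 with the nearest at 2.95. These last 2 mice were the highest of their groups in Hsd3b5 (3.20 and 5.36). No single mouse met the criterion in Hsd3b5, Cish or Bcl6, wide as their ranges are.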

How the results depend on the processing

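No axis gene was called in any of 29 alternatives (261 values, smallest adjusted p 0.192, within slide 1). The count over all genes, 3, became 6 with normexp background correction, 5 with a floor of 16, 6 with no filter, 12 with the slide as a random block (consensus correlation -0.13), 9 with eBayes with trend and robust, 15 with array weights, and 0 with the slide as a fixed block, within slide 1, within slide 3, without slide 2 and with the array column as a covariate; with 1 array left out it ran from 0 to 7. At an unadjusted p under 0.05, 1225 genes were higher and 788 lower, against 775 and 1174 with quantile normalization. The replicate numbers do not pair the mice (correlations of deviations -0.11 to 0.32, and only replicate 2 matched its own number best); with a replicate block 0 genes were called and no axis gene's call changed.

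The following log2 fold changes turned sign. With the slide as a fixed block Igf1 was -0.0037, Igfals 0.051 and Insr -0.042; as a random block Bcl6 was -0.15 and Fos 0.0039. Within slide 1 Igfals was 0.099, Stat5b 0.043, Igfbp1 -0.71, Cyp4a12a -0.037 and Cd36 0.0096. Within slide 3 Ghr was -0.044, Igf1 -0.11, Igfals 0.011, Socs2 0.29, Stat5a -0.049, Igfbp2 -0.27, Insr -0.25, Zhx2 -0.18, Cyp2c69 -0.067 and Lpl 0.21. Without slide 2 Igf1 was -0.019. With the array column as a covariate Ghr was -0.13, Igf1 -0.16, Hsd3b5 -1.03, Elovl3 -0.20, Igfbp2 -0.79, Zhx2 -0.038, Cd36 0.18 and Junb -0.052, and without slide column 1 Ghr was -0.13, Igf1 -0.15, Hsd3b5 -0.97, Elovl3 -0.26, Igfbp2 -0.54, Cd36 0.14 and Jun 0.35. With quantile normalization Ghr was -0.077 and Igf1 -0.091, and with the mean over kept probes Stat5a was -0.11. With 1 array left out Ghr ran from -0.057 to 0.12, Igf1 from -0.071 to 0.13, Igfals from -0.22 to 0.30, Socs2 from -0.51 to 0.092, Stat5b from -0.089 to 0.039, Bcl6 from -0.19 to 0.58, Igfbp2 from -0.14 to 0.45, Cd36 from -0.21 to 0.087 and Fos from -0.18 to 0.028. The causes were not tested. Column, slide and ethanol overlap on these arrays, so they can be told apart only in part.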

Other observations

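Onecut1, a liver transcription factor whose gene responds to growth hormone through STAT5, was also uneven between mice. Its log2 signals were 2.07, 2.22, 2.13, 1.63 and 2.58 in control and 2.75, 2.87, 3.13, 1.46 and 1.12 in ethanol livers. Ethanol replicates 4 and 5, the lowest mice in Cish and Socs2 and the highest in Bcl6, were also the lowest in Onecut1. Over the 10 mice, with group means removed, its r was 0.74 with Cish, -0.75 with Bcl6, 0.61 with Igf1 and 0.43 with Hsd3b5; differences between these were not tested. Its log2 fold change was 0.14 ± 0.39 (SE, limma adjusted p = 0.894). Onecut1 fell outside the rule for named genes and was picked from its list after its values were seen.

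Clock genes also varied widely between mice of 1 group. Arntl, a core activator of the clock, read -1.40, -3.41, -4.05, -1.18 and -3.08 in control and -4.31, -3.45, -1.25, -3.02 and -2.03 in ethanol livers, and its SD of 1.23 was at the 99.6th percentile of all genes. Dbp, a clock output that peaks at the opposite phase, read 5.05, 6.01, 6.20, 4.64 and 6.07 in control and 6.40, 6.25, 4.72, 5.84 and 5.75 in ethanol livers. The mice with the most Arntl, control replicates 1 and 4 and ethanol replicate 3, had the least Dbp. Elovl3 had an r of 0.58 with Arntl and -0.67 with Dbp, whereas for Hsd3b5 these were 0.06 and -0.15, for Igf1 -0.14 and 0.01 and for Cish -0.02 and 0.03. The sources used here do not give the hour of death, and its part in the spread was not tested. These genes were chosen after their values were seen.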
